A study of Mus musculus with 4 samples.

Results

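Inositol pyrophosphates are inositol phosphates that carry a diphosphate group, and they are known for roles in phosphate balance, energy metabolism and cell death. IP6 kinases and PPIP5 kinases place the diphosphate at different positions of the ring, and diphosphoinositol polyphosphate phosphohydrolases, which belong to the Nudix family, remove it. In earlier work *Ip6k3* is known for expression in skeletal muscle, and *Nudt10* and *Nudt11* for expression in brain and testis.

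The enzymes described here are the kinases *Ip6k1*, *Ip6k2*, *Ip6k3*, *Ppip5k1* and *Ppip5k2* and the phosphatases *Nudt3*, *Nudt4*, *Nudt10* and *Nudt11*. They were chosen by what their proteins do and not by their values on these arrays, though with earlier results of these data known. They are 9 of the 20144 genes with a symbol. Counts and ranks over all genes below also take in 12441 identifiers without a symbol, each as 1 gene.

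Male IP6K2-KO and WT littermate mice aged 20 weeks gave RNA of spinal cord and duodenum. All had received a purified diet for 1 week and had then been fasted for 48 h. Each genotype and tissue had 1 one-colour array, so no value here has a replicate and no difference was tested. On the spinal cord array that carries the KO label the *Ip6k2* probe was higher, not lower, than on the WT array. Where that probe lies in the transcript and whether the deleted exon holds it are unknown, so it may check nothing about the deletion. The genotype is therefore written as labelled.

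A level below is log2 of the processed spot signal minus the 75th percentile of its array, and levels are compared between arrays for 1 probe at a time. The brightest gene of a list, or that with the highest level on an array, is named by the signal of its probe. This does not compare the amounts of different transcripts. That percentile was a signal of 905 on the WT spinal cord array, 971 on the KO-labelled spinal cord array, 68.0 on the WT duodenum array and 323 on the KO-labelled duodenum array. The share of probes well above background was 76.7%, 77.4%, 51.6% and 66.3%, in that order. The duodenum arrays were dimmer, most of all the WT duodenum array.

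The median gene that was well above background on both arrays differed by −0.038 between KO-labelled and WT spinal cord and by −0.11 between KO-labelled and WT duodenum. Between the tissues it differed by 0.63 for WT and by 0.30 for the KO label, duodenum minus spinal cord. Scaling on spiked-in controls gave 2.89 in the duodenum, and −4.41 and −1.56 between the tissues for WT and the KO label. Differences are therefore given relative to the median gene, a quantity that a shift of a whole array leaves as it is. The technical SD printed with a difference comes from spots of the same array and covers neither mice nor dissections.

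The tissue labels were checked on marker genes, by the summed level of a list, which is the sum of the normalized signals in units of the 75th percentile. The 6 neuron markers summed to 209.6 on WT spinal cord, 199.8 on KO-labelled spinal cord, 18.9 on WT duodenum and 11.2 on KO-labelled duodenum. The 6 enterocyte markers summed to 0.148, 0.145, 2192 and 913 in the same order. On the WT spinal cord array the enterocyte markers *Alpi*, *Sis* and *Apoa1* were not well above background, and on the KO-labelled spinal cord array *Fabp2*, *Alpi* and *Apoa1* were not. The neuron markers *Syt1* and *Nefl* were not well above background on the WT duodenum array, but all 6 neuron markers were on the spinal cord arrays and all 6 enterocyte markers on the duodenum arrays.

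The 9 enzymes have 12 probes. *Ppip5k1*, *Ppip5k2* and *Nudt4* have 2 probes each, the other 6 genes have 1, and the *Ip6k1* probe is spotted 10 times on each array. On the spinal cord arrays 9 of 9 enzymes were well above background under either label. On the WT duodenum array 6 of 9 were, without *Ip6k3*, *Nudt10* and *Nudt11*. On the KO-labelled duodenum array 7 of 9 were, without *Ip6k3* and *Nudt10*. Counts over the 6 enzymes that passed on all arrays leave out *Nudt11*, which was measured in duodenum under the KO label alone, and the 2 that passed on neither duodenum array.

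**Figure D1:**
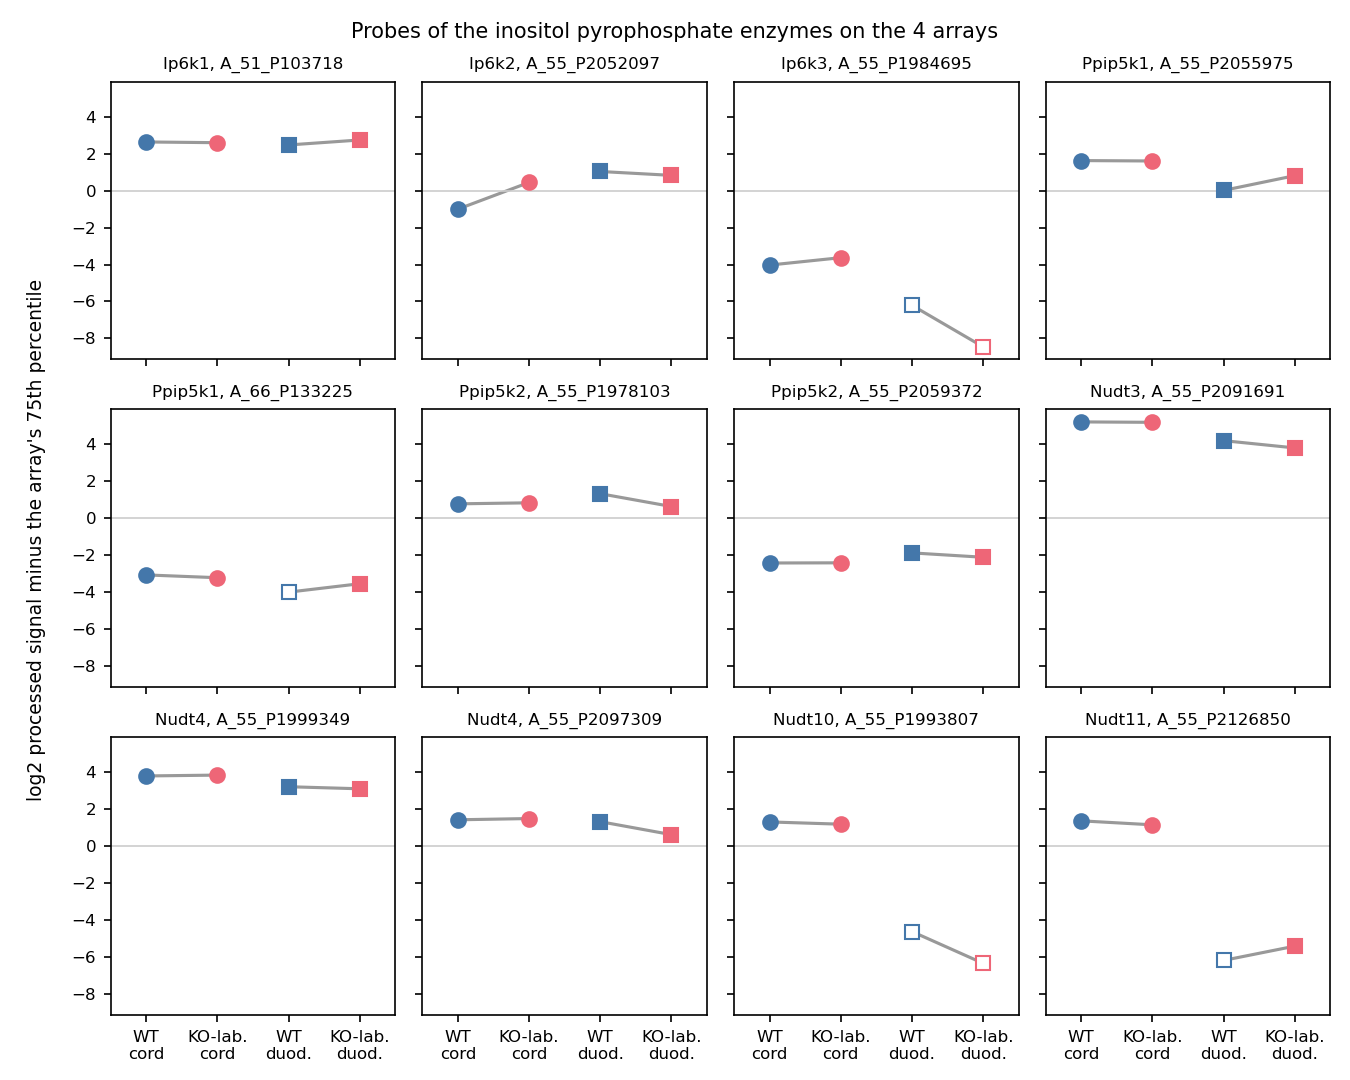
Level of each of the 12 probes on the 4 arrays, as log2 processed signal minus the 75th percentile of the array, with circles for spinal cord, squares for duodenum, blue for WT and red for the KO label. Open symbols were not well above background, and each panel is read across its own arrays.

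*Ip6k1* encodes a kinase that makes the pyrophosphate from IP6. Its level was 2.63 on WT spinal cord, 2.59 on KO-labelled spinal cord, 2.47 on WT duodenum and 2.74 on KO-labelled duodenum. KO-labelled duodenum was thus the highest array on this scale and WT duodenum the lowest, with a span of 0.27 over the 4 arrays. Relative to the median gene KO-labelled duodenum was below KO-labelled spinal cord. The 10 spots ran from 2.56 to 2.70 on WT spinal cord and from 2.55 to 2.68 on KO-labelled spinal cord, so these neighbours in the order overlap. They ran from 2.35 to 2.60 on WT duodenum and from 2.67 to 2.82 on KO-labelled duodenum, without overlap between these arrays. The range of each duodenum array overlaps those of both spinal cord arrays.

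Relative to the median gene, *Ip6k1* was higher on the KO-labelled duodenum array by 0.38, with a technical SD of 0.025. For this gene the technical SD is that of a mean of 10 spots, and for the other enzymes that of 1 spot. The SD over its single spots was 0.067 on WT duodenum and 0.045 on KO-labelled duodenum. In the spinal cord it differed by −0.0018, with a technical SD of 0.020, and this near-zero value took the other sign under normexp background correction, quantile normalization and the deposited table. The duodenum value was positive under each of the 8 alternatives, up to 0.92 under normexp background correction. Here and below, median centring and spiked-in scaling are among these 8 but cannot change a value relative to the median gene. Averaging probes moves only the median gene for an enzyme with 1 probe. Of the 16816 genes well above background on both duodenum arrays, 5225 had a higher difference than *Ip6k1*.

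*Ip6k2* encodes the kinase that the KO label names. Its level was −1.00 on WT spinal cord, 0.44 on KO-labelled spinal cord, 1.04 on WT duodenum and 0.83 on KO-labelled duodenum. WT spinal cord was the low array, followed by KO-labelled spinal cord, and the duodenum arrays were high. KO-labelled spinal cord was higher than WT by 1.48 relative to the median gene, with a technical SD of 0.059, and the duodenum arrays differed by −0.095, with a technical SD of 0.082. The sign in the duodenum changed to 0.24 under normexp background correction, with or without replaced local backgrounds, and the spinal cord value was positive under each of the 8 alternatives.

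Of the 24166 genes well above background on both spinal cord arrays, 235 had a higher difference than *Ip6k2*. It was the 1 enzyme of 9 at least 2-fold apart in the spinal cord without correction for the median gene, where 3.15% of 25223 genes were. Under normexp background correction 9739 of the 25223 genes passed 2-fold there, 9653 of them lower, and *Ip6k3* was among the lower ones. With replaced local backgrounds 173 genes were at least 2-fold higher and 19 lower. In the duodenum 0 of the 7 enzymes that passed the filter were at least 2-fold apart, where 19.1% of 21436 genes were. *Nudt11*, 1 of these 7, had no fold and counts as not apart, as does any gene without a fold. With both arrays well above background 0 of 6 enzymes were apart, where 3720 of 16816 genes were. With scaling on spiked-in controls 7 of 7 were at least 2-fold apart, all higher, as were most genes.

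Markers of other cell types moved with *Ip6k2* on the KO-labelled spinal cord array. In the skeletal muscle list 10 of 10 genes were higher there than on WT spinal cord, 9 of them at least 2-fold, with a median of 3.93 beside −0.037 over all genes. The summed level of this list was 28.5 on WT spinal cord, 96.0 on KO-labelled spinal cord, 1.73 on WT duodenum and 1.43 on KO-labelled duodenum. Its brightest gene, here and below by the mean level over the 4 arrays, was *Pvalb*, which neurons also express, and *Mylpf* was not well above background on WT spinal cord. *Pvalb* made up most of the summed level on WT spinal cord and differed by 0.23, the lowest difference of the list. On the duodenum arrays *Myh1*, *Myh2*, *Myh4* and *Mylpf* were not well above background, and neither was *Tnnt3* on WT duodenum.

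Of the 4 Schwann cell genes used here 4 were higher on KO-labelled spinal cord, 3 of them at least 2-fold, with a median of 3.07. Its summed level was 9.61, 35.2, 8.81 and 1.82 over the arrays in the order above, its brightest gene was *Pmp22*, and *Dhh* was not well above background on WT duodenum. In the blood list 5 of 5 genes were higher on KO-labelled spinal cord, 3 of them at least 2-fold, with a median of 1.16. Its summed level was 227, 349.6, 1532 and 88.4, its brightest gene was *Hba-a2*, and its 5 genes were well above background on each array. The part of these cells in the *Ip6k2* result was not tested, and in bulk tissue fewer cells of a type and less RNA per cell cannot be told apart.

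The medians of the other 12 marker lists in the spinal cord ran from −0.61 for goblet cells to 0.91 for Paneth cells, lists of which 2 genes each had a value there. The neuron list had a median of −0.068 and the oligodendrocyte list one of 0.17.

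**Figure D2:**
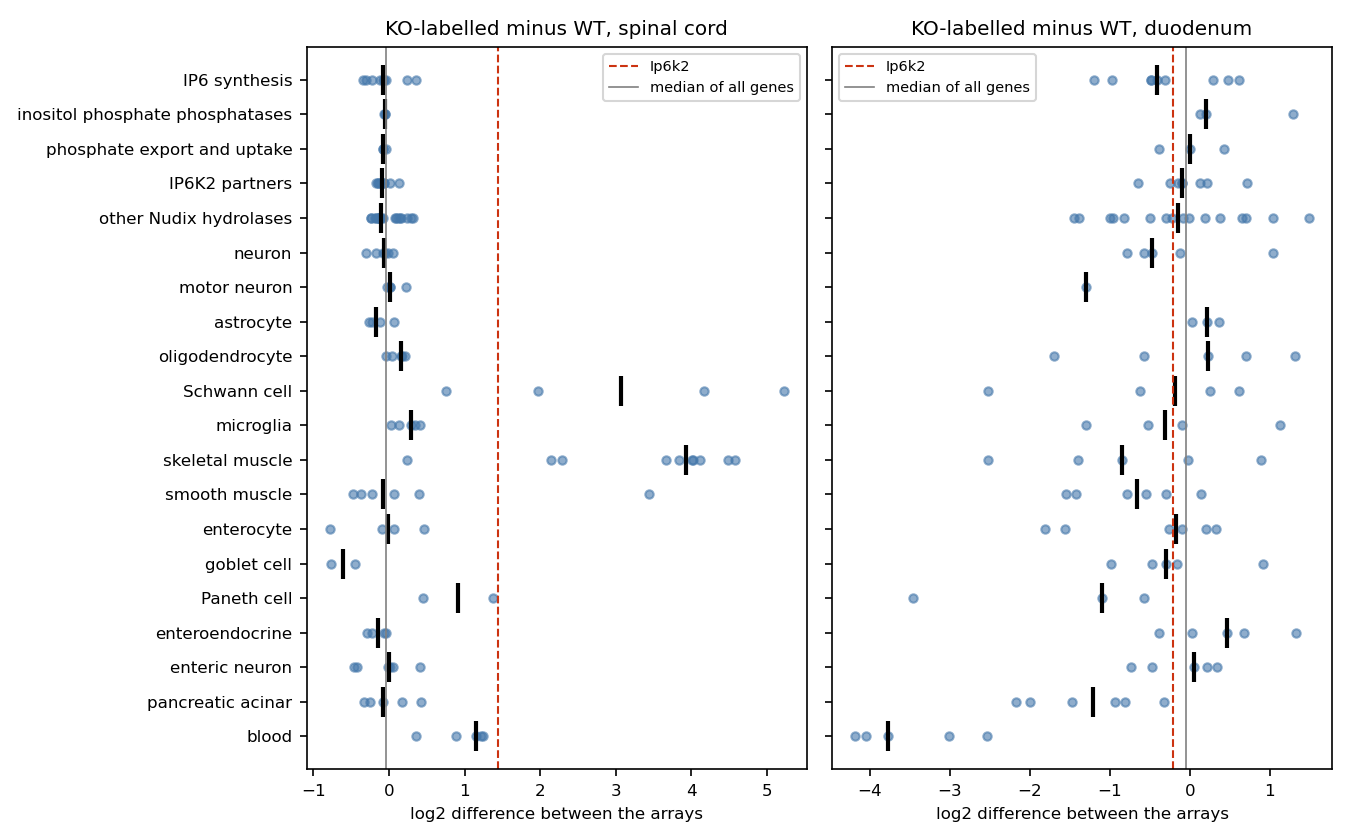
Difference between the KO-labelled and the WT array for each gene of the 5 pathway lists and 15 marker lists, as log2 and without correction for the median gene, with spinal cord on the left and duodenum on the right. Black bars are list medians, the grey line is the median of all genes and the red dashed line is *Ip6k2*, which lies at 1.45 in the spinal cord and −0.21 in the duodenum.

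Among the 12026 other genes well above background on the 4 arrays, the pattern most like that of *Ip6k2* was that of *Cbr2*, at a Euclidean distance of 0.24 over the 4 centred levels. *Pcolce* followed at 0.27, *Napsa* at 0.33, *Hacd4* at 0.40 and *H3c15* at 0.40. *Cbr2* had levels of −3.98, −2.71, −2.07 and −2.48 in the order of arrays above, with the same array lowest and the same array highest as for *Ip6k2*. For *Ip6k1* the nearest gene was *Mtg1*, at 0.024.

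*Ip6k3* encodes the third IP6 kinase. Its level was −4.03 on WT spinal cord and −3.63 on KO-labelled spinal cord, and on the duodenum arrays its signals of 0.920 and 0.919 were not well above background. It was thus measured on the spinal cord arrays alone, with the KO-labelled one higher, and the duodenum arrays have no order. KO-labelled spinal cord was higher by 0.44 relative to the median gene, with a technical SD of 0.10. The sign changed under normexp background correction, to −0.91, but not with replaced local backgrounds. In the spinal cord 1803 of 24166 genes had a higher difference. The skeletal muscle list given above was higher on the same array, and its part in the *Ip6k3* value was not tested.

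*Ppip5k1* encodes a kinase that adds a phosphate at the other site of the ring. Its level was 1.63 on WT spinal cord, 1.60 on KO-labelled spinal cord, 0.013 on WT duodenum and 0.81 on KO-labelled duodenum. WT duodenum was the low array, and the spinal cord arrays at the top of the order differed by 0.016 relative to the median gene, within their technical SD of 0.057 and with the other sign for the mean of the probes. KO-labelled duodenum was higher than WT duodenum by 0.91 relative to the median gene, with a technical SD of 0.087, and this was positive under each of the 8 alternatives, from 0.74 to 0.97.

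The other *Ppip5k1* probe was well above background on the spinal cord arrays and on KO-labelled duodenum. It was higher on KO-labelled than on WT duodenum by at least 0.56 relative to the median gene, the same direction, with a technical SD of 0.36. In the duodenum 1941 of 16816 genes had a higher difference than *Ppip5k1*. The gene nearest to its pattern was *Asxl1*, at 0.029.

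*Ppip5k2* encodes the paralogous kinase. Its level was 0.79 on WT spinal cord, 0.84 on KO-labelled spinal cord, 1.34 on WT duodenum and 0.64 on KO-labelled duodenum. WT duodenum was the high array on this scale and KO-labelled duodenum the low one, but relative to the median gene WT duodenum was below WT spinal cord. The other probe had WT duodenum highest too, with KO-labelled duodenum second. Between the duodenum arrays it differed by −0.58 relative to the median gene, with a technical SD of 0.073, and was negative under each of the 8 alternatives, from −0.67 to −0.12.

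The other *Ppip5k2* probe differed by −0.12 relative to the median gene in the duodenum, with a technical SD of 0.14, so it shows no direction beyond that SD. In the spinal cord *Ppip5k2* differed by 0.094, with a technical SD of 0.055, and its other probe by 0.047. The gene nearest to *Ppip5k2* was *Eloc*, at 0.038.

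Markers also differed between the duodenum arrays on which these kinases differ, where 19.1% of 21436 genes were at least 2-fold apart, 2552 of them lower. In the blood list given above 5 of 5 genes were at least 2-fold lower on KO-labelled duodenum, with a median of −3.77 beside −0.051 over all genes. In the pancreatic acinar list 6 of 6 genes were lower, 3 of them at least 2-fold, with a median of −1.21, and the direction of the median relative to all genes changed under quantile normalization and in the deposited table. The summed level of the acinar list was 0.457 on WT spinal cord, 0.495 on KO-labelled spinal cord, 8847 on WT duodenum and 3189.7 on KO-labelled duodenum, and its brightest gene was *Cela1*, though *Ctrb1* had the highest level on WT duodenum and *Cel* on KO-labelled duodenum. *Prss2* was not well above background on the spinal cord arrays. In the Paneth cell list 3 of 3 genes with a probe were lower, 2 of them at least 2-fold, with a median of −1.10. Its summed level was 1.19, 3.03, 409 and 143.9 in the same order, its brightest gene was *Lyz1*, and *Mmp7* was not well above background on the spinal cord arrays. In the smooth muscle list 5 of 6 genes were lower, 2 of them at least 2-fold, with a median of −0.66 whose direction relative to all genes changed under both forms of normexp. Its summed level was 2.71, 3.46, 116 and 65.6, its brightest gene was *Tagln*, and its 6 genes were well above background on each array. The medians of the other 11 marker lists in the duodenum ran from −1.30 for motor neurons, with 1 gene that had a value, to 0.46 for enteroendocrine cells. The part of these cells in the values of *Ppip5k1* and *Ppip5k2* was not tested.

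*Nudt3* encodes a phosphatase that removes the diphosphate. Its level was 5.22 on WT spinal cord, 5.20 on KO-labelled spinal cord, 4.21 on WT duodenum and 3.81 on KO-labelled duodenum. Both spinal cord arrays lay above both duodenum arrays, and the spinal cord arrays differed by 0.015 relative to the median gene, within their technical SD of 0.057 and with the other sign under normexp with replaced local backgrounds. The duodenum arrays differed by −0.28 relative to the median gene, with a technical SD of 0.067, and by 0.33 under normexp background correction, with or without replaced local backgrounds, where the sign changed. The nearest gene was *Lrsam1*, at 0.037.

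*Nudt4* encodes another of these phosphatases. Its level was 3.80 on WT spinal cord, 3.85 on KO-labelled spinal cord, 3.22 on WT duodenum and 3.11 on KO-labelled duodenum. The spinal cord arrays were high, and differed by 0.084 relative to the median gene, with a technical SD of 0.057. In the duodenum the probes of *Nudt4* differed relative to the median gene by 0.0035, with a technical SD of 0.067, and by −0.59, with a technical SD of 0.073. Those probes are 0.59 apart, and the value for the gene was −0.26 with the mean of its probes and 0.63 under normexp background correction. The nearest gene to *Nudt4* was *Ypel3*, at 0.032.

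*Nudt10* and *Nudt11* encode phosphatases of closely related sequence on chromosome X. Whether a probe binds the transcripts of both was not tested. The level of *Nudt10* was 1.31 on WT spinal cord and 1.19 on KO-labelled spinal cord, and its signals of 2.76 on WT duodenum and 3.98 on KO-labelled duodenum were not well above background. The level of *Nudt11* was 1.37 on WT spinal cord, 1.15 on KO-labelled spinal cord and −5.41 on KO-labelled duodenum, and its signal of 0.935 on WT duodenum was not well above background. The spinal cord arrays were high for both genes. Relative to the median gene, *Nudt10* differed by −0.084 and *Nudt11* by −0.18 in the spinal cord, each with a technical SD of 0.057. Both signs changed under normexp background correction, to 0.62 and 0.50, but not with replaced local backgrounds. No fold is given for *Ip6k3*, *Nudt10* or *Nudt11* between the duodenum arrays.

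The differences between KO-labelled and WT arrays can be set side by side for the 6 enzymes well above background on the 4 arrays. The spinal cord difference minus the duodenum difference, each relative to the median gene, was 1.58 for *Ip6k2* and 0.67 for *Ppip5k2*. It was −0.89 for *Ppip5k1*, from −0.90 to −0.24 over the alternatives, and −0.39 for *Ip6k1*, from −0.89 to −0.17. For *Nudt3* it was 0.29 and for *Nudt4* 0.080. Both took the other sign under normexp with replaced local backgrounds, and *Nudt4* also did under quantile normalization within each tissue. Under normexp background correction the spinal cord values relative to the median gene were 0.75 for *Ip6k1*, 0.73 for *Ppip5k1*, 0.72 for *Ppip5k2*, 0.77 for *Nudt3* and 0.88 for *Nudt4*, against at most 0.094 with the processed signal. With replaced local backgrounds *Ip6k1* was at 0.031 and *Nudt3* at −0.0017. No interaction was tested.

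**Figure D3:**
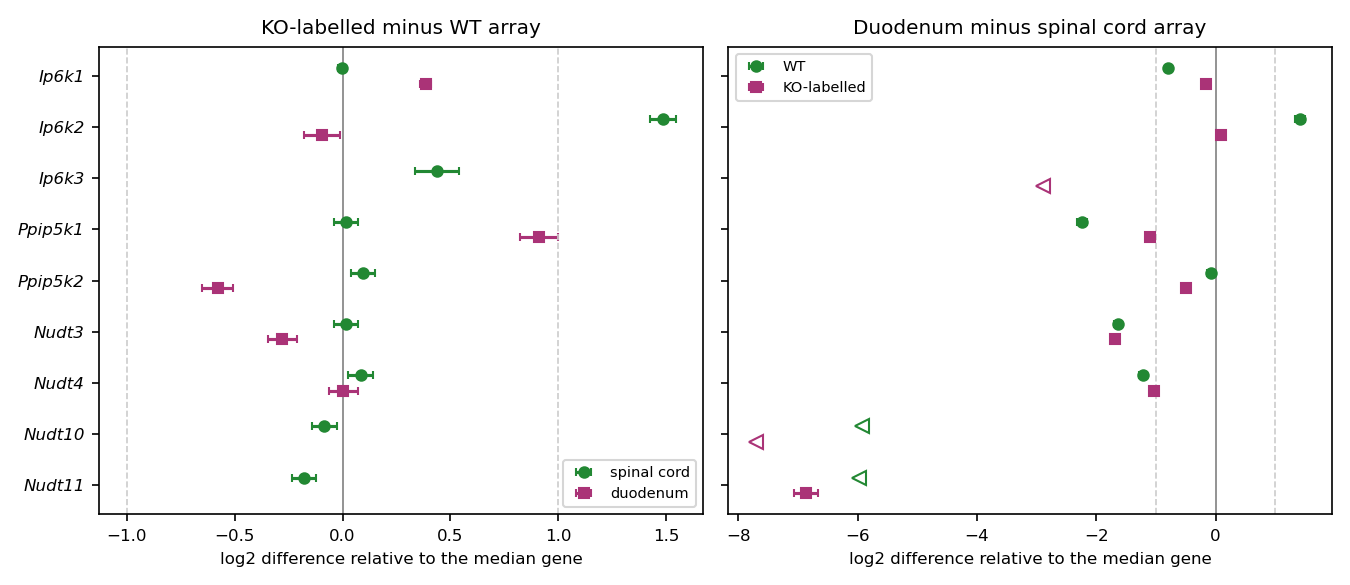
Differences of the 9 enzymes relative to the median gene, as log2, with KO-labelled minus WT on the left and duodenum minus spinal cord on the right. Bars are the technical SD, open triangles are bounds that point the way the value may go, missing symbols had no fold, and dashed lines mark 2-fold.

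The comparison of tissues sets 1 array of WT duodenum against 1 of WT spinal cord. Relative to the median gene, the duodenum level of the *Ip6k2* probe exceeded its spinal cord level in WT by 1.41. The place of that probe in the transcript is unknown, and the other 7 enzymes with a value were lower in duodenum. Under quantile normalization of the 4 arrays and in the deposited table *Ppip5k2* was at 0.044 or 0.043 and not lower, and without the correction it was higher by 0.55. At least 2-fold relative to the median gene were 6 of 9 enzymes, where 55.9% of 25223 genes were, with *Ip6k2* higher and *Ppip5k1*, *Nudt3*, *Nudt4*, *Nudt10* and *Nudt11* lower. *Ip6k2* was below 2-fold under both forms of normexp, at 0.83 and 0.79, and *Nudt4* with the mean of its probes, at −0.96. Without the correction 5 of 9 were 2-fold apart, where 53.3% of genes were, and *Nudt4* was not among them. These shares are near those over all genes.

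Among the kinases, *Ip6k1* differed by −0.79 between the WT tissues, with a technical SD of 0.026, and *Ppip5k1* by −2.24, with a technical SD of 0.084. *Ppip5k2* differed by −0.079, with a technical SD of 0.070, and its other probe by −0.081. Among the phosphatases, *Nudt3* differed by −1.64 and *Nudt4* by −1.21, and in the deposited table they were at −2.81 and −1.82. The other probe of *Nudt4* differed by −0.73, in the same direction.

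In WT, *Nudt10* was at least 60.7-fold and *Nudt11* at least 63.3-fold lower in duodenum relative to the median gene, computed against the lowest level well above background on that array. Under normexp background correction their WT values were −2.71 and −2.71 on the log2 scale, still lower in duodenum. The neuron list moved with them, since 6 of 6 of its genes were at least 2-fold lower in WT duodenum, as were 5815 of 25223 genes, with a median of −6.09 beside 0.17 over all genes. Its brightest gene was *Snap25*, though *Nefl* had the highest level on both spinal cord arrays, its summed levels are given above, and the part of neurons in the values of *Nudt10* and *Nudt11* was not tested.

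Between the KO-labelled arrays the tissues differed in the same direction as in WT for *Ppip5k1*, *Nudt3*, *Nudt4*, *Nudt10* and *Nudt11*. Relative to the median gene *Ppip5k1* was lower in duodenum by 2.13-fold, *Nudt3* by 3.22-fold and *Nudt4* by 2.06-fold. On the log2 scale *Ppip5k1* was at −0.84 with the mean of its probes, below 2-fold, and in the deposited table *Nudt3* was at −2.81 and *Nudt4* at −1.70. *Nudt10* was at least 209-fold lower, *Nudt11* was lower by 117-fold and *Ip6k3* was at least 7.40-fold lower. Under normexp background correction *Nudt10* and *Nudt11* were at −4.58 and −4.31 on the log2 scale, and *Ip6k3* had no value. *Ip6k2* differed by 0.083, with a technical SD of 0.061, and changed sign under both forms of normexp, beside 1.41 between the WT arrays, and these values were not tested against each other. The WT spinal cord array, where *Ip6k2* was lowest, enters both its spinal cord difference between labels and its tissue difference in WT.

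At least 2-fold relative to the median gene were 6 of 9 enzymes between the KO-labelled tissues, all lower in duodenum, where 56.1% of 25728 genes were. Without the correction 4 of 9 were (*Ip6k3*, *Nudt3*, *Nudt10* and *Nudt11*), where 55.7% of genes were. *Ip6k1* differed by −0.15, with a technical SD of 0.019, in the direction seen in WT, and was higher in duodenum without the correction. *Ppip5k2* differed by −0.50, with a technical SD of 0.057, and by −0.20 without the correction, where the WT value was 0.55, while its other probe differed by 0.0024, with a technical SD of 0.085.

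Other genes of the pathway were read from fixed lists, without correction for the median gene, and the shares over all genes at least 2-fold apart between labels are 3.15% in the spinal cord and 19.1% in the duodenum. The IP6 synthesis list holds 9 genes whose enzymes make inositol and, from inositol trisphosphate, IP6, the substrate of the kinases. In the spinal cord 0 of 9 were at least 2-fold apart between labels, with a median of −0.084, and in the duodenum *Itpkb*, an inositol trisphosphate kinase, was lower by 2.29-fold, with a list median of −0.41. That median relative to all genes took the other sign under normexp. Between the WT tissues 7 of 9 were higher in duodenum, 5 of them at least 2-fold, and 2 were at least 2-fold lower, where 53.3% of all genes were 2-fold apart, with a median of 1.86 beside 0.17 over all genes. Of those 7, *Itpk1* and *Ippk* were lower relative to the median gene, at −0.35 and −0.62.

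Of 3 inositol phosphate phosphatases, 0 were at least 2-fold apart in the spinal cord and *Inpp1* was higher by 2.45-fold on KO-labelled duodenum. That direction changed under normexp background correction. The list of phosphate export and uptake holds the exporter *Xpr1*, whose SPX domain binds inositol pyrophosphates, and the importers *Slc20a1* and *Slc20a2*. None of the 3 was 2-fold apart between labels in either tissue, and all 3 were lower in duodenum than in spinal cord under both labels, with medians of −1.49 for WT and −1.26 for the KO label.

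The list of 8 genes whose proteins bind IP6K2 or act with it, such as HSP90 and casein kinase 2, had medians of −0.093 in the spinal cord and −0.10 in the duodenum between labels, and 0 of 8 were 2-fold apart in either tissue. Of the 19 other Nudix hydrolases, 0 were at least 2-fold apart between labels in the spinal cord. In the duodenum 16 had a value, *Nudt13* and *Nudt1* were at least 2-fold higher (1.49 and 1.04) and *Dcp2* and *Nudt12* at least 2-fold lower (−1.45 and −1.38), 4 of 16 beside 19.1% over all genes.

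The genes of 3 pairs of enzymes share a chromosome. *Ip6k1* and *Ip6k2* lie on chromosome 9 with 39 genes between them, 30 of them coding. *Ip6k3* and *Nudt3* lie on chromosome 17 with 14 genes between them, and *Nudt11* and *Nudt10* on chromosome X with 3. *Nudt10*, *Nudt11* and *Nudt3* were each higher in spinal cord than in duodenum under both labels, *Ip6k3* was under the KO label and has no fold in WT, and *Ip6k1* and *Ip6k2* differ in the order of the arrays.

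The promoters of the 3 IP6 kinases are shown because these enzymes share a substrate and differ in pattern over the arrays. Each is the 250 bases before an annotated start in RefSeq on GRCm38.p6, written 5′ to 3′ on the strand of the gene. *Ip6k1* is at chr9:108002398-108002647 on the plus strand, *Ip6k2* at chr9:108783562-108783811 and, for another start, chr9:108795744-108795993 on the plus strand, and *Ip6k3* at chr17:27167765-27168014 on the minus strand. Capitals mark the GC box GGGCGG and the E box CAGCTG, searched on both strands, so that CCGCCC is the GC box on the other strand.
Ip6k1: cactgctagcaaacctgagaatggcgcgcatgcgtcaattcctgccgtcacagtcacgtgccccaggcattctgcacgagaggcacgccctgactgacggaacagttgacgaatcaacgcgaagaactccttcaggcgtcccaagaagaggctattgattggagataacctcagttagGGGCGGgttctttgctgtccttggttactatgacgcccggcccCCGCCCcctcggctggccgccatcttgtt
Ip6k2, upstream start: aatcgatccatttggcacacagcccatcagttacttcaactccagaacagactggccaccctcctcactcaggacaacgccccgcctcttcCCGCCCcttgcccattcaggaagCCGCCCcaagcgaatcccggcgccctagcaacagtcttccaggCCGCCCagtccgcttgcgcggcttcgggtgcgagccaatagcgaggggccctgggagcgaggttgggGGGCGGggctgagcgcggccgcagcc
Ip6k2, downstream start: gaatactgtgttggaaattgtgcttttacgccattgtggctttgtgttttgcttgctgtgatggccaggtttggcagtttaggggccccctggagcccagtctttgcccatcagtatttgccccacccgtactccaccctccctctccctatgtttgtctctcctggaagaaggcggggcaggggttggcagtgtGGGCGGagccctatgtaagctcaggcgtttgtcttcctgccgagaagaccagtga
Ip6k3: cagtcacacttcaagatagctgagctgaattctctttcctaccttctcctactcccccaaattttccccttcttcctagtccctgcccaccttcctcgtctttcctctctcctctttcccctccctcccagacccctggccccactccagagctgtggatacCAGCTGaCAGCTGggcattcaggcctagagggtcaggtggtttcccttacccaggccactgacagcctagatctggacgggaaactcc

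All 9 enzymes have a promoter entry, 11 in all, since *Ip6k2* and *Nudt3* have 2 starts each. The GC box was found 2 times for *Ip6k1*, 4 times and 1 time for the starts of *Ip6k2*, and 0 times for *Ip6k3*, which held CAGCTG 2 times. At least 1 GC box was in 7 of the 11 windows of the enzymes, in those of *Ip6k1*, *Ip6k2*, *Nudt3*, *Nudt4*, *Nudt10* and *Nudt11*, and in 32.7% of all 32851 promoters. The *Nudt3*, *Nudt4*, *Nudt10* and *Nudt11* windows held 74.4% to 82.4% G and C, beside a median of 52.4% over all promoters. Those of *Ppip5k1* and *Ppip5k2* held 41.6% and 51.2%. The part of base composition in the GC box share was not tested. The form CAGCTG was in 2 of the 11 windows, in those of *Ip6k3* and *Nudt3*, and in 13.0% of all promoters. In the skeletal muscle list 8 genes have a promoter entry, and 5 of them (*Acta1*, *Atp2a1*, *Ckm*, *Myh4* and *Mylpf*) hold CAGCTG. A match describes letters in a window and says nothing of whether a factor binds there.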

How the data were processed

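The authors deposited scanner output whose processed signal is a background-subtracted intensity, and their processing notes name Agilent Feature Extraction 11.5.1.1. They also deposited a series table of log2 values, normalized by quantiles, which served as an alternative without 6 probes that did not match the scanner files within 0.1.

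Control spots were left out, and so were flagged spots (89 to 133 of the remaining 43020 per array). The log2 of the processed signal was averaged per probe, minus the 75th percentile of the array. A probe was well above background where at least 0.5 of its spots were. RefSeq identifiers gave 20144 symbols. The probe of a gene with the highest mean level stands for it. With 1 array well above background, a difference is a bound against the higher of the probe's own value and the lowest value well above background on the other array (−7.66, −7.82, −3.99 and −6.22 for WT spinal cord, KO-labelled spinal cord, WT duodenum and KO-labelled duodenum), and where that bound allowed no fold, none is given. Counts at 2-fold took genes that passed the background filter on 1 or both of the arrays compared. Among these a gene without a fold counts as not 2-fold apart. The technical SD comes from the 50 probes nearest in brightness among 399 spotted 10 times, and is that of 1 spot on each array. For *Ip6k1* it comes from its own 10 spots and is that of their mean, which makes it smaller. No test was made, since groups have 1 array, and their number limits the precision. No probe was saturated.

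Members, lists and alternatives were chosen with earlier results of these data known. The Schwann cell list was used without 1 of its genes, which is not reported here. The rule for names took all members, list genes at least 2-fold apart between labels (at most 5 a list and tissue), the brightest gene of a marker list and by Euclidean distance over the 4 centred levels the 5 genes nearest to *Ip6k2* and the 1 nearest to each other member on all arrays; marker genes at least 2-fold apart are given as counts and not all named. Markers not well above background, transporters and the genes behind a count were named after their values were seen. Calculations used R 4.3.3 with limma 3.58.1, Python 3.11.15, numpy 2.4.6 and pandas 2.3.3, and were tested on simulated data. Alternatives were normexp background correction (offset 50, on the median signal), the same with flagged local backgrounds replaced, median centring, quantile normalization over all 4 arrays or in each tissue alone, scaling on 8 spiked-in probes, the deposited table, and averaging the probes of a gene. Counts were also made with both arrays required to pass the background filter, unfiltered, and at 1.5-fold.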

Additional observations from a re-analysis of the deposited data

Results flagged for a closer look

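*Ip6k2* and *Ppip5k2* differed in opposite directions in the tissues, each by more than its technical SD, when KO-labelled and WT arrays were compared relative to the median gene. For *Ip6k2* the spinal cord value was 1.48 and the duodenum value −0.095, which are 1.58 apart, with a technical SD of 0.10. The distance ran from 1.12 to 1.76 over the alternatives, while the duodenum value alone changed sign under normexp. For *Ppip5k2* the values were 0.094 and −0.58, which are 0.67 apart, with a technical SD of 0.091. That distance ran from 0.28 to 0.85 over the alternatives. The other *Ppip5k2* probe was within its technical SD in both tissues, at 0.047 with an SD of 0.077 and at −0.12 with an SD of 0.14. Each tissue has 1 array per label, so these differences between the tissues were not tested.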

How the results depend on the processing

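Each member's difference relative to the median gene was recomputed under the alternatives, and the distance between the tissues under the same ones, a step chosen after seeing the data. Of 32 member values over the 4 comparisons, 21 had 1 sign in each setting run and 11 took both signs. Median centring and spiked-in scaling leave these values as they are, so they add nothing to the 21. The deposited table is itself normalized by quantiles. No paired analysis was possible because the labels do not say which arrays share an animal, and a fit with the genotype as a block was not run. Leaving out an array was not run, since it removes a group, and quantile normalization within a tissue gives no value between tissues.

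*Ip6k2* in the spinal cord (1.48) was 1.36 under normexp with replaced local backgrounds and 1.57 under 4-array quantile normalization and in the deposited table. In the duodenum (−0.095) it was 0.24 under both forms of normexp, −0.19 under 4-array quantile normalization and in the deposited table, and −0.20 under within-tissue quantile normalization. The distance between the tissues for *Ip6k2* (1.58) was 1.26 under normexp, 1.12 with replaced local backgrounds, and 1.76 under 4-array quantile normalization and in the deposited table. For *Ppip5k2* (0.67) it was 0.85, 0.28, 0.77 under within-tissue quantile normalization and 0.39 with the mean of the probes. The cause was not tested.

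The count of genes at least 2-fold apart in the spinal cord (576 higher, 218 lower) was 9739 under normexp, of which 9653 were lower, and 192 with replaced local backgrounds. The highest local background was 15708 on WT spinal cord and 47 on the KO-labelled array. The count was 1980 without a filter and 2126 at 1.5-fold. In the duodenum (1543 higher, 2552 lower) it was 20631 with spiked-in controls, 15002 without a filter and 8482 at 1.5-fold. Between the WT tissues (7618 higher, 5815 lower) it was 7479 under normexp, 24145 with spiked-in controls and 23872 without a filter. Spiked-in scaling shifts all genes of an array alike, and the filter and fold set what a count admits. For the rest the cause was not tested.

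Of the members, 2 were at least 2-fold apart in the spinal cord under normexp in place of 1, *Ip6k2* higher and *Ip6k3* lower. In the duodenum, in place of 0, there were 7 with spiked-in controls, 2 without a filter (*Ip6k3* and *Nudt10*, below background on both arrays) and 2 at 1.5-fold. Between the WT tissues, in place of 5, there were 9 with spiked-in controls, all lower in duodenum and *Ip6k2* among them. There were 3 with both arrays well above background (10528 genes). Between the KO-labelled tissues (14325 genes), in place of 4, there were 9 (19132 genes) and 2 (11401 genes).

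The share of higher genes among those counted moved by more than 10 points from 72.5% in the spinal cord to 0.883% under normexp, 90.1% with replaced local backgrounds, 55.7% with spiked-in controls, 55.8% without a filter and 62.0% at 1.5-fold. From 37.7% in the duodenum it moved to 21.6%, 21.5%, 99.9% and 16.4% under the first 4 of these. Between the WT tissues (56.7%) it was 70.1% with replaced local backgrounds, 3.58% with spiked-in controls and 69.0% without a filter, and between the KO-labelled tissues (54.4%) 69.5% under both forms of normexp and 12.9% with spiked-in controls.

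Relative to all genes some values at least 2-fold apart changed direction. The acinar list in the duodenum (−1.16) was at 0.24 under 4-array quantile normalization, 0.32 within the tissue and 0.27 in the deposited table, and its gene *Prss2* (−1.36 relative to the median gene) at 0.22, 0.29 and 0.24. Between the WT tissues the blood list (1.13) was at −0.37 under 4-array quantile normalization and −0.39 in the deposited table. *Inpp1* in the duodenum (1.41) was at −0.33 under both forms of normexp. The cause was not tested. Of the other values, counts of genes among them, 716 were classed as the same and 651 as moved. Values that a setting could not change are among those classed as the same. For the difference of a gene the limit was its technical SD, which a count does not have. Among the values classed as moved were smaller list medians that changed sign.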

Other observations

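Each group has 1 array, and the control is a littermate, so animal, dissection and genotype cannot be told apart. The technical SD covers spots and not animals. The place of the *Ip6k2* probe in the transcript is unknown, as is that of the other probes. The WT duodenum array was dim, and between the duodenum arrays a difference of *Ip6k3*, *Nudt10* or *Nudt11* was not detectable at this signal over background. Whether the probes of *Nudt10* and *Nudt11* bind the transcripts of both genes was not tested.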
